A study of Gallus gallus with 20 samples.

Results

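The genes described here are the transcription factor ATF4 and 9 genes of its amino acid and stress program, 10 symbols in all: ATF4, ATF3, ASNS, PSAT1, PHGDH, CHAC1, TRIB3, SLC7A5, SLC7A11 and SLC38A2. They were picked by name, with earlier results of these data known. Where a symbol has several entries in the count table, the one with the most counts is taken. Of the 10, 9 are listed by symbol, each with a single entry, among 30108 genes in the table, and 14248 of those genes carry a symbol. TRIB3 is not listed by symbol and was not analysed here. All 9 listed genes had enough counts for a test.

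ATF4 is a bZIP transcription factor whose protein is made chiefly when the kinases of the integrated stress response phosphorylate eIF2 alpha, because small reading frames upstream in its mRNA restrain translation until then. Lack of amino acids, endoplasmic reticulum stress and other stresses act through these kinases, and ATF4 protein then turns on genes for amino acid synthesis, amino acid import and glutathione metabolism. Control is therefore largely at translation and protein stability, which a transcript count does not measure. In proliferating muscle stem cells the same enzymes and carriers supply serine, glycine, asparagine and cystine for growth.

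RNA was sequenced from proliferating muscle stem cells (MuSCs), the satellite cells of the pectoralis major. The cells were grown from Ross-308 broilers aged 36 days and used between the third and the fifth passage. The muscle came from the study's own birds or from breast fillets of an abattoir. Which sample had which source is not given in the sources used here. Affected birds had wooden breast, a breast muscle myopathy of fast-growing broilers, with pronounced fibrosis and collagen infiltration. Non-affected birds showed fewer of these signs. The study also reports centrally nucleated fibers, and at times necrosis and inflammation, in its non-affected birds. There were 9 affected samples (named A) and 11 non-affected samples (named NA), from 16 bird numbers, 4 of which have a further sample marked B. The study's methods leave out some non-affected samples as outliers, which are not named in the sources used here, and state other group sizes than the labels, so the labelled samples used here may include those. The sources used here name no agent or introduced genetic change that separates the groups, and all cells were kept in growth medium. Whether samples with the same bird number are separate cultures is not given in the sources used here, so p-values measure the spread between these 20 samples, which may in part be technical.

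Total counts were between 15425103 and 28113814 per sample, with medians of 19234724 in non-affected and 17731763 in affected samples. PAX7, the satellite cell marker, was detected in every sample. Its medians were 158 CPM (counts scaled to a common library total) in non-affected and 70.8 CPM in affected samples. MYOG, a marker of differentiating myoblasts, ran from 0.0628 over a median of 4.56 to 340 CPM in non-affected samples. In affected samples MYOG ran from 0.183 over a median of 0.234 to 0.522 CPM. The summed level of 7 myogenic markers was 78.2 to 1878 CPM in non-affected and 57.1 to 232 CPM in affected samples, and that of 13 macrophage markers was 13.9 to 36.3 CPM and 29.3 to 142 CPM, respectively. HINTW, a gene of the female-specific W chromosome, had 1316 to 5701 counts in 9 non-affected samples and 876 in A76. It had at most 9 counts in the other 8 affected samples, A76B among them, and 0 in NA61 and NA61B, although the labels call the birds male. A76 and A76B thus share a bird number but had 876 and 0 HINTW counts. Whether a shared bird number always stands for the same bird was not tested. HINTW expression and disease group thus nearly coincide, and their effects cannot be fully told apart. The part of cell composition and of HINTW status in the results below was not tested beyond the values given beside them. In bulk RNA, fewer expressing cells and less RNA per cell cannot be told apart.

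None of the 9 genes differed between affected and non-affected MuSCs at an adjusted p of 0.05 or less (edgeR quasi-likelihood test, Benjamini-Hochberg over 14524 tested genes), where 6.24% of all tested genes did, 3.33% higher and 2.91% lower in affected samples. With a log2 fold change of at least 1 in either direction as well, 3.29% of tested genes passed. All 9 had a positive log2 fold change, that is, a higher mean in affected samples, compared with 48.6% of tested genes. For PHGDH and SLC7A5 this sign depended on the affected samples A72 and A85. With all 20 samples, the mean differences of PHGDH and SLC7A5 on log2(CPM + 1) were -0.49 and -0.18. Leaving out A72 and A85 gave -1.99 for PHGDH and -0.97 for SLC7A5, with no test. The other members kept a positive sign, from 0.08 ± 0.26 (SE) for PSAT1 to 0.52 ± 0.21 for SLC38A2. At an unadjusted p under 0.05, 5 of 9 were higher in affected samples (ATF3, ASNS, CHAC1, SLC7A11 and SLC38A2) and 0 were lower, where 12.4% of tested genes were higher at that level. The median log2 fold change of the 9 was 0.55, and over all tested genes it was -0.01. The 9 genes were chosen with earlier results of these data known, so these shares are a description. A72 and A85 were the highest samples for 7 of the 9, so the genes are not separate evidence. DESeq2 called 3 of the 9 at the same threshold, CHAC1 and SLC7A11 as higher and PHGDH as lower after replacing its counts in A72 and A85. By limma-voom with sample weights 3 others were called, ATF3, ASNS and SLC38A2, all higher. DESeq2 called 10.6% of tested genes and limma-voom 15.4%. Levels are given as CPM, which can be compared between samples for a gene but not between genes, since they are not scaled by transcript length.

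**Figure D1:**
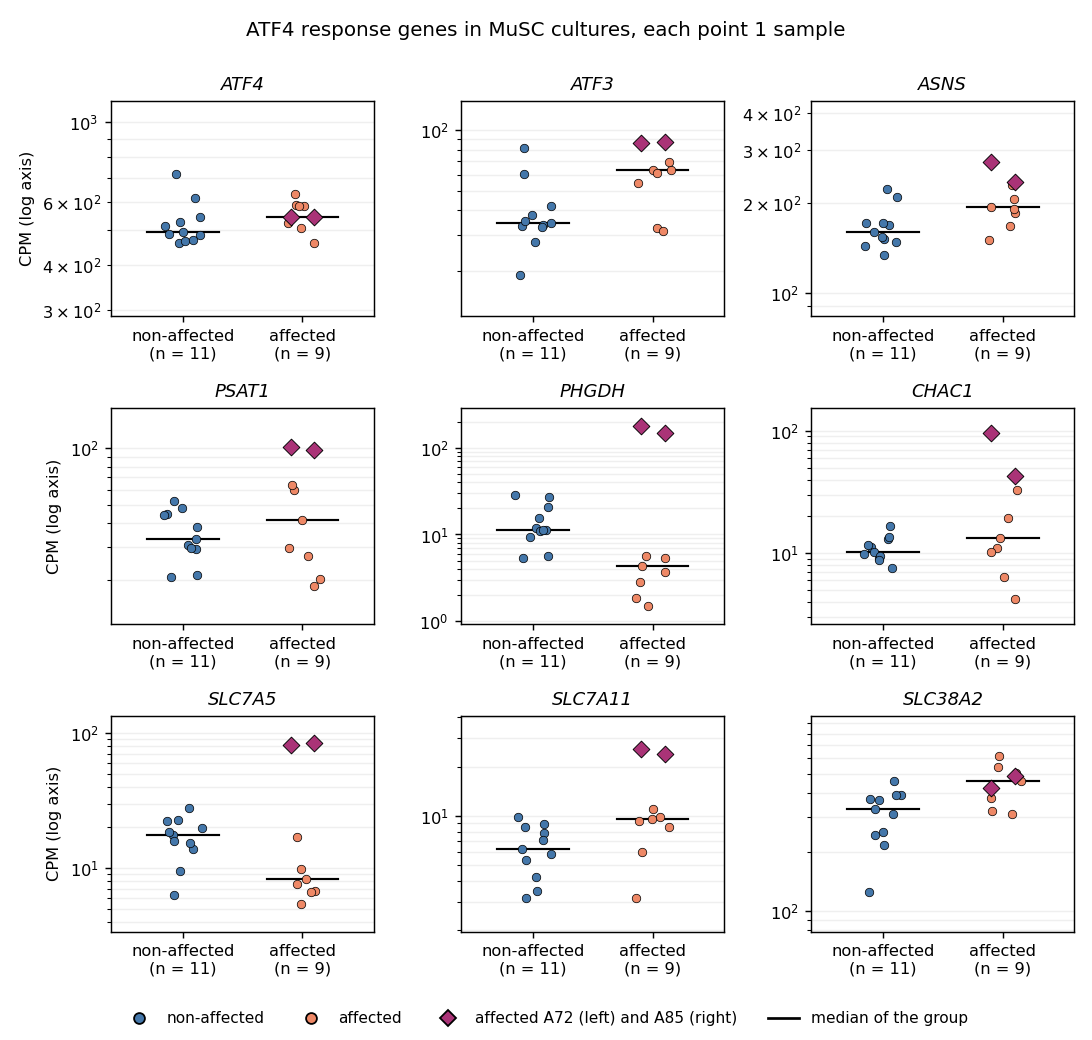
CPM of each of the 9 genes in each sample on a log axis, with 11 non-affected samples on the left and 9 affected samples on the right of each panel, and the group median as a line. The affected samples A72 and A85, drawn as diamonds, lie above all other samples for ATF3, ASNS, PSAT1, PHGDH, CHAC1, SLC7A5 and SLC7A11, and within the others for ATF4 and SLC38A2.

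Among the regulators, ATF4 (ENSGALG00010012407, chromosome 1 from 50638488 to 50641444 in GRCg7b) had nearly the same level in both groups. Its lowest, median and highest CPM were 461, 494 and 718 in non-affected samples and 461, 546 and 630 in affected samples. The groups overlapped over their whole range, and the highest value of all belonged to the non-affected sample NA64B. Of the 9 affected samples, 8 were above the non-affected median. The log2 fold change of ATF4 was 0.07 ± 0.09 (SE), with a 95% interval of -0.10 to 0.24 and an adjusted p of 0.632 by edgeR. Without NA64B it was 0.13 ± 0.07 (SE), with an adjusted p of 0.286 by edgeR.

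ATF3 (ENSGALG00010019307, chromosome 3 from 21534501 to 21543315), a stress-induced bZIP factor that is itself an ATF4 target, had 19.0, 34.7 and 81.2 CPM as lowest, median and highest values in non-affected samples. In affected samples these were 31.4, 63.0 and 87.7 CPM. Only A73 and A76 among the affected samples were below the median of the non-affected group. Among the non-affected samples NA61B (81.2 CPM) and NA69 (60.5 CPM) were high, and the other 9 had at most 42.0 CPM. Affected samples had a log2 fold change of 0.61 ± 0.23 (SE), with an adjusted p of 0.109 by edgeR. Without NA61B it was 0.77, with an adjusted p of 0.0245 where 8.26% of tested genes passed, and without A73 it was 0.71, with an adjusted p of 0.0449 where 12.2% passed. With HINTW as a term in the model the ATF3 estimate was -0.0066 ± 0.30 (SE). Estimates under that term were also lower for PSAT1 (0.23 ± 0.52), CHAC1 (0.74 ± 0.69), SLC7A5 (0.04 ± 0.89), SLC7A11 (0.52 ± 0.46) and SLC38A2 (0.38 ± 0.27). Those of ATF4 (0.07 ± 0.13), ASNS (0.36 ± 0.17) and PHGDH (1.46 ± 1.93) were not lower. NA61 and NA61B, the non-affected samples without HINTW counts, had 33.6 and 81.2 CPM of ATF3.

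Of the enzymes, PHGDH (ENSGALG00010013380, chromosome 8 from 4252500 to 4255797), which opens the serine synthesis pathway from the glycolytic intermediate 3-phosphoglycerate, gave the widest spread. Non-affected samples ran from 5.30 over a median of 11.4 to 28.2 CPM. Affected samples ran from 1.48 over a median of 4.27 to 179 CPM, and A72 (179 CPM) and A85 (147 CPM) made up the whole upper end. The other 7 affected samples lay between 1.48 and 5.60 CPM, all of them below the non-affected median and 5 of them below every non-affected sample. Affected samples thus lay on both sides of the non-affected range, with A16B and A79 just inside its lower edge. The mean gave a log2 fold change of 1.44 ± 0.80 (SE), adjusted p 0.275 by edgeR, while the medians differed in the opposite direction. Without A72 and A85, a choice made from their values and so given with no test, the log2 fold change was -1.99. DESeq2 gave -1.53 with an adjusted p of 0.000884, because it took the counts of A72 (2726) and A85 (2814) for outliers and replaced them by 149 and 187. With that replacement switched off, DESeq2 gave 1.45 and no adjusted p for PHGDH.

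PSAT1 (ENSGALG00010015533, chromosome Z from 38582875 to 38598178), the aminotransferase that follows PHGDH in serine synthesis, had 20.8, 32.9 and 52.4 CPM as lowest, median and highest values in non-affected samples. In affected samples these were 18.5, 41.5 and 102 CPM. A72 (102 CPM) and A85 (98.1 CPM) were again the highest, followed by A16B and A16 with 64.2 and 59.9 CPM, and these 4 lay above all non-affected samples. A73 and A76 lay below all of them. For PSAT1 the log2 fold change was 0.53 ± 0.29 (SE), adjusted p 0.278 by edgeR. PSAT1 is Z-linked, and male birds carry a further Z chromosome. Its median was 32.9 CPM in the 9 non-affected samples with over 100 HINTW counts. NA61 and NA61B, which share a bird number, had 20.8 and 44.6 CPM, and the part of Z dosage was not tested. PSPH, the phosphatase that completes serine synthesis, had a log2 fold change of -0.14 ± 0.26 (SE), adjusted p 0.769 by edgeR. Its highest affected values were also those of A85 (11.5 CPM) and A72 (10.7 CPM), which lay within the non-affected range of 3.96 to 11.5 CPM.

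ASNS (ENSGALG00010003382, chromosome 2 from 24567634 to 24581367), which makes asparagine from aspartate and glutamine, had 133, 160 and 222 CPM in non-affected samples (lowest, median, highest). The affected samples had 150, 193 and 274 CPM. A72 (274 CPM), A85 (235 CPM) and A16 (229 CPM) exceeded every non-affected value, and A16B alone fell short of the non-affected median. ASNS had a log2 fold change of 0.29 ± 0.11 (SE), adjusted p 0.118 by edgeR, a fold of 1.22.

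CHAC1 (ENSGALG00010022412, chromosome 5 from 23962634 to 23964689) encodes a cyclotransferase that breaks down glutathione. It ran from 7.52 over 10.2 to 16.6 CPM in non-affected samples and from 4.21 over 13.2 to 95.6 CPM in affected samples. The non-affected samples were close together, whereas the affected samples reached beyond them at both ends: A72 (95.6 CPM), A85 (42.4 CPM), A16B (32.6 CPM) and A4 (19.4 CPM) lay above all non-affected samples, and A76B (6.39 CPM) and A73 (4.21 CPM) below. CHAC1 had a log2 fold change of 1.25 ± 0.42 (SE), adjusted p 0.0793 by edgeR. The estimate was 0.67 without A72, with an adjusted p of 0.253, and 1.40 without A73, with an adjusted p of 0.0264. DESeq2 called CHAC1 at an adjusted p of 0.0286.

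Of the transporters, SLC7A5 (ENSGALG00010010461, chromosome 11 from 17602477 to 17634911), the light chain of the LAT1 carrier for large neutral amino acids such as leucine, split like PHGDH. Non-affected samples had 6.28, 17.6 and 28.1 CPM (lowest, median, highest), and affected samples had 5.39, 8.36 and 84.2 CPM. A85 (84.2 CPM) and A72 (81.8 CPM) lay far above, and the other 7 affected samples, at 5.39 to 16.9 CPM, lay below the non-affected median. For SLC7A5 the log2 fold change was 0.55 ± 0.50 (SE), adjusted p 0.515 by edgeR, and -0.97 without A72 and A85, with no test.

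SLC7A11 (ENSGALG00010008444, chromosome 4 from 28490107 to 28547306), the cystine and glutamate exchanger that supplies cysteine for glutathione, had 3.14, 6.28 and 9.89 CPM in non-affected samples and 3.17, 9.61 and 25.6 CPM in affected samples. A72 (25.6 CPM) and A85 (24.1 CPM) stood apart, A4 (11.1 CPM) and A16B (9.93 CPM) lay just above the non-affected range, and A73 was near its lower end. SLC7A11 had a log2 fold change of 0.89 ± 0.31 (SE), adjusted p 0.0896 by edgeR, and 1.02 without A73, with an adjusted p of 0.0261. DESeq2 gave an adjusted p of 0.0440.

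SLC38A2 (ENSGALG00010013977, chromosome 1 from 31126912 to 31141960), the sodium-coupled carrier SNAT2 that imports small neutral amino acids and is induced when they run short, did not show that split. It had 125, 331 and 456 CPM in non-affected samples (lowest, median, highest) and 312, 459 and 615 CPM in affected samples. In 5 of 9 affected samples the level exceeded every non-affected value, A85 (487 CPM) among them, while A72 (421 CPM) did not. The lowest non-affected value, that of NA70, stood below the others. SLC38A2 had a log2 fold change of 0.51 ± 0.18 (SE), adjusted p 0.0974 by edgeR, and 0.52 without A72 and A85, with no test.

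**Figure D2:**
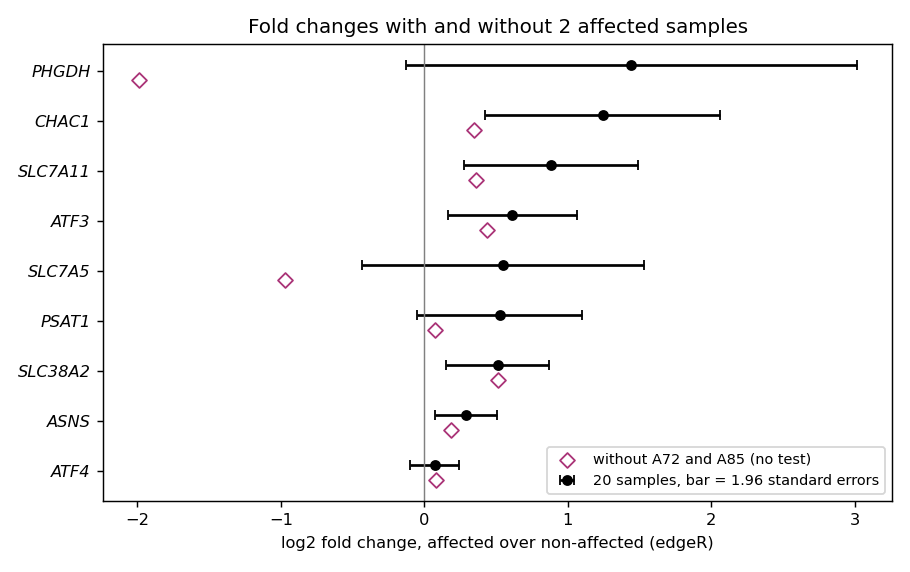
Log2 fold change of affected over non-affected samples from edgeR for each of the 9 genes, as filled points with bars for the 95% interval over 20 samples and as open diamonds without the affected samples A72 and A85. PHGDH moved from 1.44 to -1.99 and SLC7A5 from 0.55 to -0.97, whereas SLC38A2 was 0.51 and 0.52 and ATF4 0.07 and 0.08.

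The fold changes without A72 and A85 separate the members into groups, as a description. PHGDH and SLC7A5 changed sign. PSAT1, CHAC1 and SLC7A11 kept a positive sign with 0.08, 0.34 and 0.36, each less than their values with all samples. ATF3 (0.44), ASNS (0.19), SLC38A2 (0.52) and ATF4 (0.08) moved least. These 2 samples have different bird numbers. A72 had the lowest total count of the affected samples (15632134), and A85 had 18984499. Samples of a group were also compared in pairs by a chi-square per degree of freedom, over genes with at least 20 counts in both together. It was 42.1 for A72 and A85, the lowest of all affected pairs, followed by 43.3 for A76B and A79. For A16 and A16B it was 64.3, and for A76 and A76B 72.4. These values were not scaled for depth, so their order may in part reflect the total counts of the samples.

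To place this split among all genes, each tested gene was scored by the gap, on log2(CPM + 1), between the lower of A72 and A85 and the highest of the other 18 samples. The pair was chosen because of the values of these genes, so the following is a description with no test. Both samples lay above all others for 7 of the 9 genes, compared with 1.97% of the 14524 tested genes, and both lay below all others for 0 of the 9, compared with 1.85%. Ranked by the gap, PHGDH was at place 1 of 14524, SLC7A5 at 3, SLC7A11 at 7, PSAT1 at 13 and CHAC1 at 33. ATF3 was at 140, ASNS at 218, ATF4 at 3247 and SLC38A2 at 5026. All 190 pairs of samples were also ranked by the number of genes they topped by a 1.5-fold margin in CPM plus 1. A72 and A85 were at place 5 with 14 genes. The 4 pairs with more genes were led by NA68 and NA70 with 53.

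**Figure D3:**
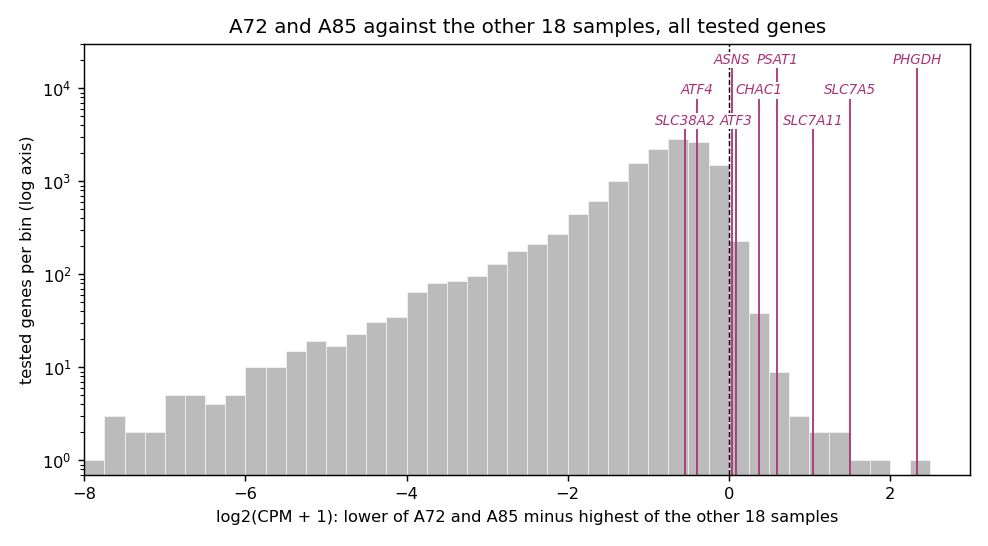
Histogram of 14524 tested genes by the log2(CPM + 1) gap between the lower of A72 and A85 and the highest of the other 18 samples, with the number of genes per bin on a log axis and the 9 genes as vertical lines. Values right of the dashed line are genes with both samples above all others; PHGDH has the largest gap of all, and ATF4 and SLC38A2 lie in the bulk to the left.

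The other genes of the pathway were taken from lists of enzymes, carriers, sensors and ATF4 targets, of which 162 genes apart from the members were tested. A72 and A85 lay above all other samples for 13 of them (8.02%), compared with 1.97% of all tested genes. They lay below for 1, compared with 1.85% of all tested genes. ALDH1L2, a mitochondrial enzyme of folate metabolism, came next after PHGDH in the ranking of all genes, with 27.9 and 26.7 CPM in A72 and A85 and at most 6.21 CPM elsewhere. SLC1A4, the ASCT1 carrier for alanine, serine and cysteine, had 115 and 116 CPM against at most 75.9 CPM. CTH, which makes cysteine from cystathionine, had 131 and 102 CPM against at most 77.5 CPM.

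Further genes with both samples on top were GPT2, the mitochondrial alanine aminotransferase (46.7 and 34.5 CPM, elsewhere at most 25.0 CPM), and the proline synthesis enzymes PYCR1 and ALDH18A1. The carriers SLC43A2 and SLC6A9, the leucine sensor SESN2 and its relative SESN1, the bZIP factors CEBPG and NFE2L1, and the cysteinyl-tRNA synthetase CARS completed the 13. Of the list of 20 tested ATF4 targets, 8 were in this set. MTHFD2, another ATF4 target of folate metabolism, was not, with 60.7 and 56.2 CPM in A72 and A85 within the 38.6 to 75.9 CPM of the non-affected samples. SLC16A10, a carrier of aromatic amino acids, was the gene with both samples lowest, at 1.91 and 2.14 CPM against at least 3.32 CPM. CTH, SLC6A9, CARS and the others of this paragraph and the previous one were chosen by the values of A72 and A85.

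**Figure D4:**
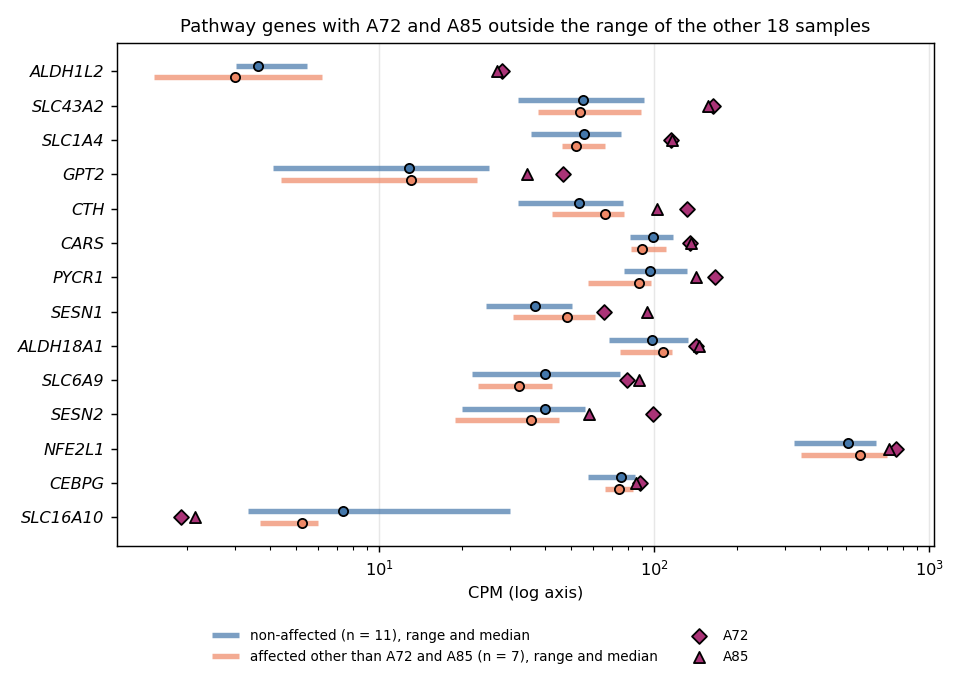
CPM on a log axis of the 14 pathway genes, members excluded, for which A72 (diamond) and A85 (triangle) lay outside the other 18 samples, with bars for the range and points for the median of 11 non-affected samples and of the other 7 affected samples. A72 and A85 lie to the right of both bars for 13 genes and to the left for SLC16A10.

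Other markers moved with this pair. The summed level of 9 fibroblast markers was 3787 and 4386 CPM in A72 and A85, against at least 5645 CPM in the other samples, a sum carried by the collagens COL1A1 (2657 and 3119 CPM, elsewhere at least 3644 CPM) and COL1A2. Other genes of that list did not go the same way: DPT was highest in A72 and A85 (3.94 and 1.25 CPM, elsewhere at most 0.507 CPM), PDGFRA (9.72 and 8.04 CPM) exceeded the other 7 affected samples, and PDGFRB lay within the others. The summed level of 6 smooth muscle markers was 174 and 186 CPM, against at least 210 CPM, and of its genes SMTN was lowest in both. The summed level of 6 adipocyte markers was 720 and 667 CPM against at most 564 CPM, carried by the lipoprotein lipase gene LPL (422 and 375 CPM, elsewhere at most 417 CPM) and by FABP4, the 1 gene of that list with both samples on top (188 and 186 CPM, elsewhere at most 171 CPM). PPARG (72.7 and 64.8 CPM) and CEBPA (33.2 and 33.4 CPM) lay below the medians of the other affected samples, 99.8 and 43.6 CPM, and ADIPOQ and PLIN1 lay within the others. The macrophage sums of A72 and A85, their myogenic sums (178 and 232 CPM) and endothelial sums (49.5 and 90.9 CPM) lay within those of the other samples. The part of these differences in the levels of PHGDH and the other genes was not tested.

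Between affected and non-affected MuSCs as groups, few genes of the pathway lists passed the test. Of 162 genes, 3 were higher and 3 lower in affected samples at an adjusted p of 0.05 or less by edgeR, which is 3.70% compared with 6.24% of all tested genes. The median log2 fold change of the 162 was -0.03.

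VEGFA, an angiogenic growth factor gene that ATF4 can induce, ran from 53.6 over 62.9 to 97.0 CPM in non-affected and from 82.3 over 110 to 138 CPM in affected samples. The groups overlapped only at their edges, and the log2 fold change was 0.68 ± 0.12 (SE), adjusted p 0.00538 by edgeR. CEBPD, a bZIP factor of the C/EBP family, ran from 36.2 over 62.8 to 76.1 CPM in non-affected and from 70.2 over 81.8 to 118 CPM in affected samples, with a log2 fold change of 0.57 ± 0.13 (SE), adjusted p 0.0173. SLC7A6, which pairs with the same heavy chain as SLC7A5 to exchange basic and neutral amino acids, had medians of 36.2 and 47.0 CPM and a log2 fold change of 0.49 ± 0.14 (SE), adjusted p 0.0365.

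The lower genes were CDO1, RRAGD and SDF2L1. CDO1, the dioxygenase that starts the breakdown of cysteine, ran from 0.778 over 2.20 to 5.30 CPM in non-affected and from 0.577 over 0.788 to 1.98 CPM in affected samples. Its log2 fold change was -1.40 ± 0.35 (SE), adjusted p 0.0236 by edgeR. CDO1 is Z-linked, and NA61 and NA61B had 4.49 CPM as the higher and 1.05 CPM as the lower value. RRAGD, a Rag GTPase of the amino acid branch to mTORC1, had -0.23 ± 0.07 (SE), adjusted p 0.0494, and SDF2L1, an endoplasmic reticulum chaperone component, had -0.41 ± 0.12 (SE), adjusted p 0.0425. With HINTW as a term, 0 of the 162 genes passed, where 1 of 14524 genes did (0.00689%) and 849 (5.85%) had an unadjusted p under 0.05. The log2 fold changes under that term were 0.75 ± 0.19 (SE) for VEGFA, 0.50 ± 0.21 for CEBPD, 0.52 ± 0.23 for SLC7A6 and -1.39 ± 0.48 for CDO1, close to those without it and with larger errors, while SDF2L1 had -0.29 and RRAGD -0.18.

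VEGFA, CEBPD and CDO1 passed in each of the 20 fits that left out 1 sample, SLC7A6 in 10, SDF2L1 in 6 and RRAGD in 3. The highest adjusted p over these fits was 0.0138 for VEGFA, 0.0397 for CEBPD and 0.0490 for CDO1. With counts added up per bird number, VEGFA, CEBPD and CDO1 passed, and SLC7A6 (adjusted p 0.0583), RRAGD (0.0656) and SDF2L1 (0.0541) did not. Without the B samples, SLC7A6 (0.117) and SDF2L1 (0.0842) did not pass by edgeR. Without A79 and A76B, VEGFA (adjusted p 0.0274) and CEBPD (0.0491) passed by edgeR. CDO1 (0.0851), SLC7A6 (0.0765), RRAGD (0.0843) and SDF2L1 (0.132) did not pass in that fit.

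The kinases that phosphorylate eIF2 alpha did not differ detectably between the groups as transcripts. The log2 fold change was -0.10 for EIF2AK1 (HRI), -0.01 for EIF2AK2 (PKR), 0.01 for EIF2AK3 (PERK) and -0.11 for EIF2AK4 (GCN2), with adjusted p between 0.555 and 0.982 by edgeR. The activity of kinases is not visible in their transcripts. Of 14 tested genes for these kinases and eIF2 control, 0 passed, 0 had an unadjusted p under 0.05, and 0 passed by DESeq2. Of 20 tested genes of the ATF6 and XBP1 arms of endoplasmic reticulum stress, 4 had a positive log2 fold change, compared with 48.6% of all tested genes. The median was -0.16, and SDF2L1 was the gene that passed by edgeR. Of these 20 genes, 5 had an unadjusted p under 0.05, and 2 were called by DESeq2. Over all tested genes, 24.1% had an unadjusted p under 0.05 by edgeR, and DESeq2 called 10.6%.

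Serine, glycine and one-carbon enzymes apart from the members had a median log2 fold change of -0.15 over 14 tested genes, and 0 passed, with 3 at an unadjusted p under 0.05 and 1 called by DESeq2. Amino acid transporters apart from the members had a median of 0.12 over 22 tested genes, with SLC7A6 passing. Of these transporters, 6 had an unadjusted p under 0.05 and 3 were called by DESeq2. For 18 cytosolic aminoacyl-tRNA synthetases the median was 0.02 and 0 passed, with 1 at an unadjusted p under 0.05 and 1 called by DESeq2. Beside these list counts, 24.1% of all tested genes had an unadjusted p under 0.05 by edgeR, and 6.24% passed. DESeq2 called 10.6%. DDIT3, SLC3A2, which encodes the heavy chain partner of SLC7A5 and SLC7A11, and SLC1A5 are not listed by symbol and were not analysed here.

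No relation of ATF4 transcript levels with those of another member passed adjustment across the 20 samples. Over 8 relations, Pearson's r of log2(CPM + 1) ran from -0.28 with SLC7A5 to 0.32 with ASNS, and 0 had an adjusted p of 0.05 or less by permutation. For ATF4 and ASNS, r was 0.32 (p = 0.164, adjusted p = 0.612) and Spearman's rho 0.39 (p = 0.0944, adjusted p = 0.252, permutation test), and r was 0.56 without the 2 samples farthest from the ATF4 median, NA64B and A73. The highest rho was that with ATF3, 0.47 (p = 0.0365, adjusted p = 0.252, permutation test), where r was 0.31 with all samples and 0.61 without NA64B and A73. For PSAT1, r was 0.08 with all samples and 0.57 without that pair.

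Within the 9 affected samples, ATF4 and SLC38A2 ran in opposite directions. Pearson's r was -0.87 (exact permutation p = 0.00183, adjusted p = 0.0146 over 8 relations) and Spearman's rho was -0.85 (exact permutation p = 0.00607, adjusted p = 0.0486). The permutation treated the 9 samples as independent, although they come from 7 bird numbers. A16 and A16B, which share a bird number, had 585 and 586 CPM of ATF4. Without A4 and A73, the samples farthest from the ATF4 median, r was -0.74. A4 had the lowest ATF4 level (461 CPM) and the highest SLC38A2 level (615 CPM) of the affected samples, and A73 the highest ATF4 level (630 CPM) with 322 CPM of SLC38A2. In the 11 non-affected samples the same relation had r = 0.10 (permutation p = 0.773), and the difference between the groups was not tested.

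Within the 11 non-affected samples, ATF4 went with ATF3 by rank, with rho 0.78 (adjusted p 0.0345, permutation test) but r 0.37 (adjusted p 0.521). ATF4 went against SLC7A5, with rho -0.76 (adjusted p 0.0345) and r -0.78 (adjusted p 0.0772, permutation test). NA64B, with the highest ATF4 and the lowest SLC7A5 level of its group, is among the points of that relation, and without it and NA66 r was -0.58. These 11 samples come from 9 bird numbers, and the permutations treated them as independent.

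Among the members, deviations from the group means were correlated for 36 pairs. With A72 and A85 the samples fall into separate clusters for several genes, so r is given without them. Leaving them out is a choice made from their values, so these r are given with no test. Over the other 18 samples r ran from -0.53 to 0.59 with a median of 0.14. With all 20 samples, 11 pairs passed, all positive and with PHGDH, PSAT1, CHAC1, SLC7A5 or SLC7A11 in each, and 1 passed by Spearman's rho. Without A72 and A85, ATF3 and SLC38A2 had r = 0.59, PSAT1 and PHGDH 0.51, CHAC1 and SLC7A11 0.51, and ATF4 and SLC7A11 -0.53 over the 18 samples, with no test.

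The genes most like ATF4 across the samples were GPR173 (r = 0.87), LRRC20 (0.87), TMEM101 (0.84), HARS1 (0.84) and NANOS1 (0.81), from Pearson's r of the deviations over 20 samples and 9116 genes. HARS1 encodes the cytosolic histidyl-tRNA synthetase. The genes most like the mean standardized level of the 9 members, over 9108 genes, were SLC25A43 (0.87), TCEA3 (0.87), SYT12 (0.85), GPT2 (0.85) and TMEM140 (0.85). In all 5 of these, A72 and A85 were above the other 18 samples. Without A72 and A85, r was 0.62 to 0.84 for these 5 and 0.82 to 0.88 for the 5 like ATF4.

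Samples of a bird number differed for some genes. The chi-square per degree of freedom described above was 64.3 to 169 for pairs sharing a bird number. For the other pairs of a group it was 27.7 to 260. Of 36 comparisons (4 bird numbers, 9 genes), 12 differed by more than 1 SD of their group on log2(CPM + 1), 10 of 18 in non-affected and 2 of 18 in affected samples, whose SD includes A72 and A85. NA64 and NA64B had 28.2 and 11.1 CPM of PHGDH, 22.2 and 6.28 CPM of SLC7A5, and 486 and 718 CPM of ATF4. NA61 and NA61B had 33.6 and 81.2 CPM of ATF3 and 253 and 456 CPM of SLC38A2. A16 and A16B were alike for ATF4 (585 and 586 CPM) and ATF3 (63.1 and 63.0 CPM) but had 229 and 150 CPM of ASNS, and their 13.2 and 32.6 CPM of CHAC1 differed by less than 1 SD of the affected group.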

How the data were processed

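RNA-seq of 20 MuSC samples was analysed. Reads were trimmed, aligned to GRCg7b with STAR 2.7.9a and quantified with Salmon 1.10.1, and the authors deposited expected counts (estimated counts) per gene, not normalized between samples. Whether counting used strand is not given in the sources used here. Estimated counts were rounded. Genes were filtered with filterByExpr, normalized by TMM and tested by edgeR 4.0.16 (glmQLFTest, R 4.3.3), affected against non-affected, without covariates and with Benjamini-Hochberg adjustment over 14524 genes. The SE is the log2 fold change divided by the square root of F, an approximation, and intervals are 1.96 SE. CPM used TMM-scaled totals. The authors' own normalization and statistics used DESeq2, here version 1.42.0 as an alternative, beside limma-voom (limma 3.58.1), other normalizations and filters, bird sums, removal of B samples, a HINTW term, the 10 samples with at most 100 HINTW counts, removal of A79 and A76B, and each sample left out. DESeq2 without outlier replacement and removal of A72 and A85 were chosen after seeing the data. Correlations used 100000 permutations, or all orders for 9 samples, with a pseudocount of 1 CPM. The edgeR step and the correlations were tested on simulated data.

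Every member was named. Of the pathway lists, genes at or under an adjusted p of 0.05, the eIF2 alpha kinases, DDIT3, SLC3A2, PSPH and SLC1A5 were named, and the 5 genes of at least 5 mean CPM most like ATF4 or the members' mean. Genes named for A72 and A85, and MTHFD2, were chosen after their values were seen. The members and lists were chosen with earlier results of these data known. Positions are from RefSeq for GRCg7b, matched by symbol. Samples with a shared bird number were kept as separate samples, as labelled, and may not be independent. Sums per bird number are among the alternatives and join A76 with A76B, which differ in HINTW counts.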

Additional observations from a re-analysis of the deposited data

Results flagged for a closer look

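Each of the 9 genes and the total count were examined for a sample far from the others in the affected group of 9 samples. These are 10 groups of values, and chance flags about 1 in 20 of such groups. The genes were examined as CPM, not on a log scale. CHAC1 in A72, at 95.6 CPM, was separated from the next sample by 0.58 of the range of the affected group, above the critical value of 0.493. The total count of A16B, 26541152, was separated from the next affected sample by 0.69 of the range. PHGDH, SLC7A5, SLC7A11 and PSAT1 did not meet this criterion, which looks at a single extreme sample, because A72 and A85 lie close together.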

How the results depend on the processing

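The count of the 9 genes with an adjusted p of 0.05 or less was 0 in the edgeR test, 3 by DESeq2 (PHGDH, CHAC1, SLC7A11), 2 by DESeq2 without outlier replacement (CHAC1, SLC7A11) and 3 by limma-voom (ATF3, ASNS, SLC38A2). Leaving out each sample in turn gave 0 to 3, with 3 without A73 (ATF3, CHAC1, SLC7A11), where 12.2% of all genes passed, and 1 without NA61B (ATF3), where 8.26% did. In the 10 samples with at most 100 HINTW counts the count was 0, where 0.231% of genes passed. Directions changed for ATF3 with HINTW as a term (-0.0066), for PHGDH by DESeq2 (-1.53), limma-voom (-0.66) and without A72 and A85 (-1.99), and for SLC7A5 by limma-voom (-0.17) and without A72 and A85 (-0.97). The cause was not tested, apart from the replaced counts of PHGDH. Leaving out A72 brought PHGDH from 1.44 to 0.60 and CHAC1 from 1.25 to 0.67, and leaving out A85 brought SLC7A5 from 0.55 to 0.05. Over the pathway lists, DESeq2 called 16 genes (9.88%, where it called 10.6% of all genes) and the HINTW term 0, compared with 6. ATF4 was correlated with 1 gene within the affected samples and 0 overall. The 11 pairs of correlated genes became 6 with 0.1 CPM added and 5 with bird sums. No paired analysis was possible because the groups share no bird number.

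The low levels of SLC7A11, CHAC1, CDO1 and, in most affected samples, PHGDH rest on fewer reads than those of ATF4 or SLC38A2, and intervals cover the spread among samples only. Transcripts do not report ATF4 protein or eIF2 alpha phosphorylation.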
